A study of Homo sapiens with 2 samples.

Results

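The cardiac T-box factor genes are TBX5, TBX20, TBX2, TBX3 and TBX18. They were taken by symbol from the gene rows of the deposited matrix and made up 5 of its 36601 genes. On the GENCODE annotation of GRCh38 they lie at chr12:114353931-114408442 (TBX5, minus strand), chr7:35202430-35254147 (TBX20, minus strand), chr17:61399896-61409466 (TBX2, plus strand), chr12:114670254-114684164 (TBX3, minus strand) and chr6:84687351-84764519 (TBX18, minus strand). The cells came from H9, an established human embryonic stem cell line, here carrying the fluorescent calcium reporter gCaMP6f, and were cardiomyocytes of day 15 of differentiation. Frozen vials were thawed, each sample was stained with an antibody hashtag, and equal cell numbers were pooled into 1 gene expression library and 1 hashtag library on the 10x Genomics platform. All cells share the line, the reporter and the thaw, no label says what a hashtag marks, and the labels describe the pool only as a pooled sample. The hashtags are therefore treated as samples of no known group. No test was made across them, and comparisons within hashtags are given as ratios and counts of hashtags.

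T-box factors are transcription factors that bind DNA through a shared domain and recognise a short motif. In the embryonic heart TBX5 and TBX20 act with NKX2-5 and GATA4 to switch on the programme of the working chambers, while TBX2 and TBX3 repress that programme in the atrioventricular canal and the conduction system, keeping genes such as NPPA, GJA5 and GJA1 low. TBX18 is known from the sinus horns, where the pacemaker forms, and from the epicardium, the sheet of cells that covers the heart.

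The matrix held 24038 barcodes, all of them shared by the gene and hashtag libraries, with 311110726 gene UMIs (unique molecules). After filters and doublet removal 20634 cells remained, with a median of 11991 UMIs. Clusters made without the T-box genes gave 15917 cardiomyocyte-like cells (77.1%), 1484 stromal-like, 791 epithelial-like, 355 endoderm-like, 254 epicardial-like and 68 endothelial-like cells. Cluster 13, with 156 cells, was left unnamed, and 1609 cells of clusters with few UMIs were left out. The 12 cardiomyocyte marker genes summed to 43027 CPM (UMIs of a gene scaled to the same total in every group) in cardiomyocyte-like cells. Outside them and cluster 13, those markers still stood at a median of 10.3% (epicardial-like) to 27.4% (endoderm-like) of that level, which is the scale on which a T-box level in another class has to be read. A hashtag was assigned to 10001 cells over 13 hashtags. Hashtags 14 and 15 stood apart: 46.3% and 68.6% of their cardiomyocyte-like cells carried the atrial marker NR2F2 or the pacemaker marker SHOX2 without the ventricular marker HEY2, against 1.14% to 20.4% in the other 11.

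TBX5, which activates chamber genes, was present in every cluster of cardiomyocyte-like cells and was detected in 56.1% of these cells at full depth. Its level in cardiomyocyte-like cells was 69.8 CPM (95% counting interval 68.7 to 70.8, 16749 UMIs). Cluster 13 stood at 104 CPM and epicardial-like cells at 55.7 CPM (48.0 to 64.3). Below them came stromal-like cells at 24.4, endoderm-like at 17.4, endothelial-like at 14.5 and epithelial-like at 10.1 CPM. The levels in endoderm-like, endothelial-like and epithelial-like cells were 24.9%, 20.7% and 14.4% of the cardiomyocyte-like level, beside medians of 27.4%, 12.99% and 12.3% for the cardiomyocyte markers in the same classes. In stromal-like cells TBX5 stood at 35.0% and the markers at 20.2%. In epicardial-like cells TBX5 stood at 79.9% of the cardiomyocyte-like level while the cardiomyocyte markers stood at 10.3%. Intervals given here cover counting error only, since the cells came from 1 library.

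TBX20, a factor of working heart muscle, had its highest level in cardiomyocyte-like cells, at 11.7 CPM (11.3 to 12.2). Every other class was lower. Cluster 13 stood at 4.29, stromal-like cells at 2.75, endoderm-like at 1.47 and epithelial-like at 1.04 CPM, and epicardial-like cells had 2 counts, or 0.60 CPM. The 68 endothelial-like cells had none, which puts them at least 2.70-fold lower than cardiomyocyte-like cells when 3 counts are taken as the floor. The intervals of the endoderm-like, epithelial-like and epicardial-like classes overlapped, so no order among those 3 is given.

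TBX2, a repressor of the chamber programme, had its highest level in cluster 13, at 192 CPM (170 to 217), which was 4.83-fold (4.26 to 5.45) the 39.8 CPM (39.0 to 40.6) of cardiomyocyte-like cells. Stromal-like cells came next at 61.6 CPM (57.9 to 65.5), 1.55-fold above cardiomyocyte-like cells. Endoderm-like cells had 17.5, endothelial-like 13.02, epithelial-like 7.19 and epicardial-like 6.59 CPM, and the intervals of the last 3 overlapped. In stromal-like over cardiomyocyte-like cells 25.1% of 9381 genes were past 1.5-fold higher and 11.6% lower. The counts of TBX2 are uncertain in 1 respect: TBX2-AS1 (chr17:61393456-61411555, minus strand) spans the whole gene on the opposite strand and had 70.7 CPM in cardiomyocyte-like cells, and whether the counting used strand is not given in the sources used here.

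TBX3, the close relative of TBX2 that is known from the sinus node, had its highest levels outside the heart muscle. Endothelial-like cells stood at 136 CPM (110 to 166), epithelial-like at 132 (125 to 138) and endoderm-like at 120 CPM (112 to 128), with overlapping intervals. These were 4.09-fold (3.30 to 5.02), 3.96-fold (3.75 to 4.19) and 3.61-fold (3.35 to 3.88) the 33.2 CPM (32.5 to 33.9) of cardiomyocyte-like cells. Past 1.5-fold higher were 24.9%, 25.9% and 20.1% of the genes measured in these 3 comparisons, and 29.1%, 18.1% and 16.7% were lower. Cluster 13 had 48.6, stromal-like cells 39.8 and epicardial-like cells 8.09 CPM. By hashtag, the 3 hashtags with at least 20 epithelial-like cells had 85.1, 101 and 311 CPM, and the 3 with at least 20 endoderm-like cells had 78.8, 198 and 301 CPM, all above the cardiomyocyte-like median of 32.5 CPM over 13 hashtags.

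TBX18 marked the epicardial-like cells. They stood at 226 CPM (211 to 243, 756 UMIs), against 23.1 CPM in endothelial-like cells (16 UMIs), 16.8 in stromal-like, 8.57 (8.20 to 8.95) in cardiomyocyte-like, 4.29 in cluster 13, 3.39 in endoderm-like and 1.99 in epithelial-like cells. The epicardial-like level was 26.4-fold (24.3 to 28.7) the cardiomyocyte-like level and 13.4-fold (11.7 to 15.5) the stromal-like level. TBX20 (0.05), TBX2 (0.17) and TBX3 (0.24) were past 1.5-fold lower in epicardial-like than in cardiomyocyte-like cells, and TBX5 (0.80) was not. Over stromal-like cells TBX5 was 2.28-fold higher (1.91 to 2.72) and TBX2 (0.11) and TBX3 (0.20) were lower, with 8.93% of 9433 genes higher and 20.5% lower. In epicardial-like over cardiomyocyte-like cells 21.8% of the 9197 genes with 10 CPM and 10 counts on the higher side were past 1.5-fold higher and 20.9% past 1.5-fold lower.

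**Figure D1:**
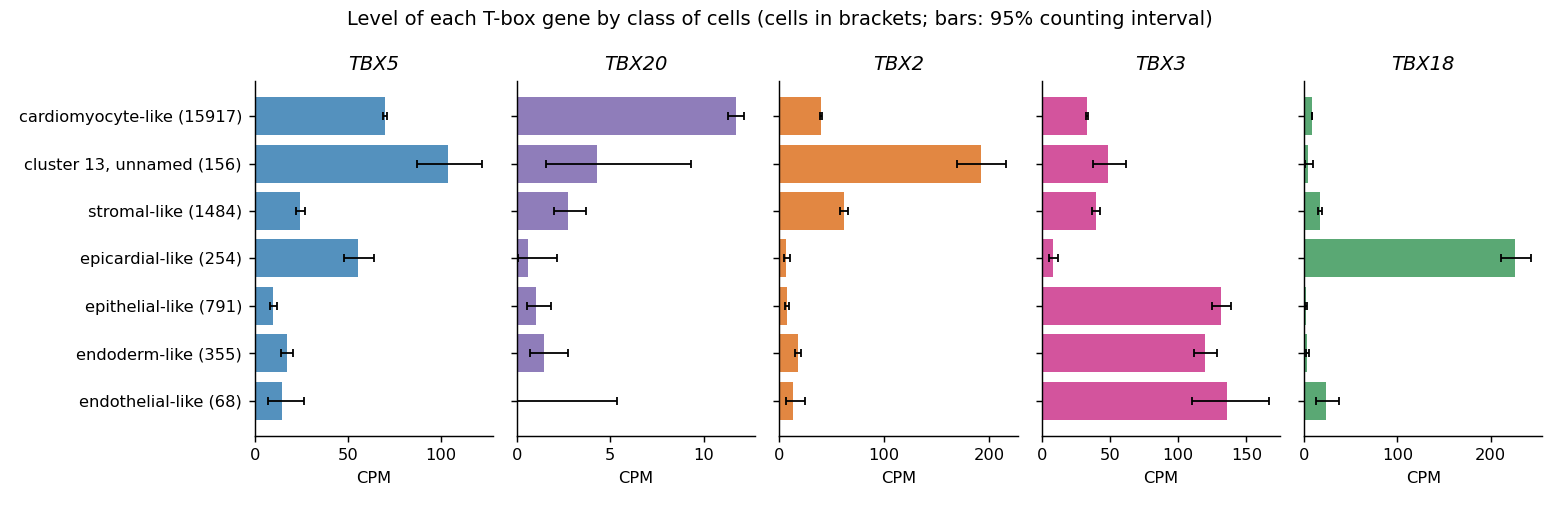
Level of each T-box gene (horizontal axis, CPM, a separate scale for each gene) in each class of cells, with the number of cells in brackets and the 95% counting interval as a bar. TBX18 stands out in epicardial-like cells at 226 CPM, TBX2 in cluster 13 at 192 CPM, TBX3 in the endothelial-like, epithelial-like and endoderm-like cells, and TBX20 in cardiomyocyte-like cells.

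The epicardial-like cells were described further by their TBX18. To set cells of different depth on 1 scale, each cell was thinned at random to 3000 UMIs. TBX18 was then detected in 117 of 247 epicardial-like cells (47.4%), against 2.21% of cardiomyocyte-like cells and 0.403% of epithelial-like cells, the class taken here as lacking the gene. ALDH1A2, which makes retinoic acid in epicardium, was detected in 42.7% (33.6 to 52.2) of the cells with TBX18 and in 20.8% (14.2 to 28.8) of those without. WT1 (35.0% against 33.1%) and TCF21 (33.3% against 33.1%), other epicardial transcription factors, showed no such gap, and BNC1 (34.2% against 25.4%) had overlapping intervals. The 10 epicardial markers summed to 1097 CPM (990 to 1212) with TBX18 and 864 (774 to 961) without. In stromal-like cells TCF21 was detected in 32.8% (21.3 to 46.0) of the 61 cells with TBX18 and in 14.3% (12.5 to 16.3) of the 1307 without.

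Epicardial-like over cardiomyocyte-like levels of the signals that act on T-box genes were past 1.5-fold higher for 5 of 14 and lower for 3, beside 21.8% of all genes higher and 20.9% lower, so the share of lower ones was that of all genes. ALDH1A2 was 225-fold higher (141 against 0.629 CPM), TGFB2, an epicardial growth factor, 5.16-fold and the receptor NOTCH2 4.19-fold, while WNT2 was at 0.06. ALDH1A2 is also an epicardial marker and was among the leading genes that named this class. Its higher level there was therefore set by the naming. Of the T-box regulated heart genes, 7 of 11 measured were lower, among them SMPX (0.07), MYH6 (0.08) and NPPA (0.09), and 3 were higher. GJA1, a gap junction gene that TBX2 and TBX3 are known to repress, was 4.26-fold higher in epicardial-like cells (137 against 32.1 CPM). TLE1, a corepressor that T-box factors can recruit, was 22.0-fold higher (36.5 against 1.66 CPM).

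Among the cardiomyocyte-like cells, 3 genes that are not T-box genes gave subtypes. HEY2-positive cells (8820) had HEY2 and neither of the others, NR2F2-positive cells (2028) had NR2F2 alone, and SHOX2-positive cells (235) had SHOX2 with no HEY2. A positive call rested on 1 UMI in 25.1%, 37.4% and 35.3% of them. Median depth was 14871 UMIs in HEY2-positive, 9053 in NR2F2-positive and 8964 in SHOX2-positive cells, so a missing marker means less in the shallower cells.

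NR2F2-positive cells carried more TBX3, TBX5 and TBX2 than HEY2-positive cells. TBX3 stood at 71.5 against 24.97 CPM, 2.86-fold (2.69 to 3.04). TBX5 stood at 142 against 58.0 CPM, 2.44-fold (2.34 to 2.55). TBX2 stood at 56.9 against 33.0 CPM, 1.72-fold (1.61 to 1.84), which was 1.304, within 1.5-fold, when subtypes and levels were taken at 3000 UMIs in each cell. TBX20 stood at 17.7 against 11.8 CPM, 1.502-fold (1.34 to 1.68), on the edge of the fold used for a call. TBX18 went the other way, at 3.34 against 9.34 CPM, below the level needed for a call. Of 8620 genes measured, 8.35% were past 1.5-fold higher and 3.31% past 1.5-fold lower.

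Hashtag composition differs between these subtypes, so the same ratio was taken inside each of the 10 hashtags with at least 20 cells of both. TBX3 was higher in NR2F2-positive cells in 10 of 10 hashtags, with a median of 1.99-fold (1.32 to 4.64). TBX5 was higher in 10 of 10, with a median of 2.06-fold (1.12 to 3.68). TBX18 was lower in 10 of 10, at 0.18 to 0.56 where both sides had counts. This rested on 0 to 12 TBX18 UMIs in the NR2F2-positive cells of a hashtag, and most of the intervals held 1. Hashtag 7 had 0 against 38 UMIs, too few for a ratio. TBX2 was higher in 8 of 10, with a median of 1.502-fold (0.71 to 2.78). It was lower in hashtag 14 at 0.71 (0.52 to 0.97) and in hashtag 12 at 0.88 (0.35 to 1.86). TBX20 was higher in 4 and lower in 6 of 10, with a median of 0.88. Without hashtags 14 and 15 and cells with no hashtag the TBX20 ratio was 0.96 (0.73 to 1.23), so its pooled ratio rests on those cells, while TBX3 stayed at 2.10, TBX5 at 2.01 and TBX2 at 1.92.

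**Figure D2:**
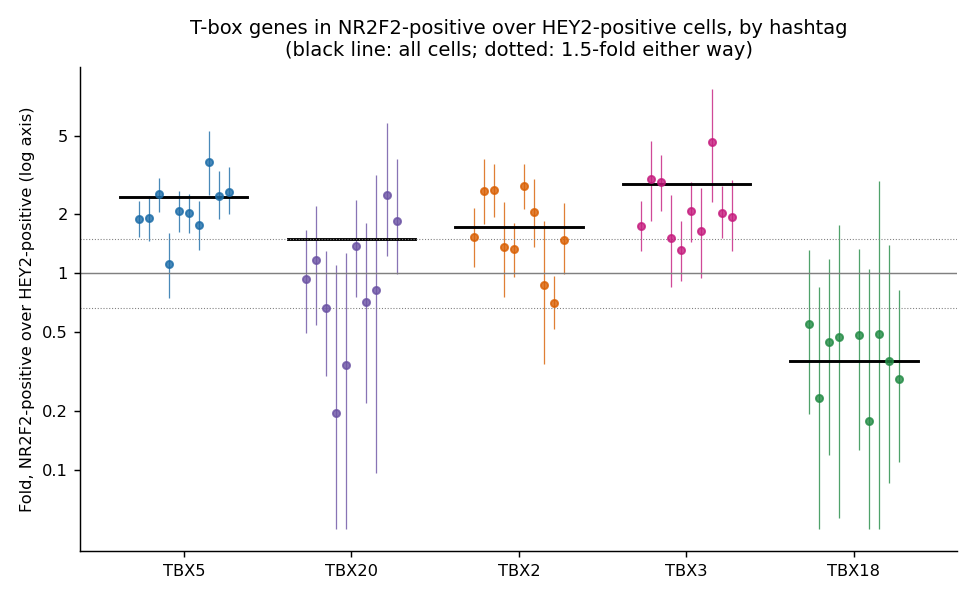
Ratio of NR2F2-positive to HEY2-positive cells for each T-box gene (vertical axis, log scale), 1 point for each hashtag with at least 20 cells of both subtypes, with its 95% counting interval cut off at 0.05, and all cells together as a black line. The TBX5 and TBX3 points all lie above 1 and the TBX18 points all below it (1 hashtag with no TBX18 on 1 side is not drawn), while the TBX20 points lie on both sides.

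Genes that T-box factors are known to regulate split by direction between the same subtypes. Of 14 genes 11 were measured, 6 were past 1.5-fold higher in NR2F2-positive cells and 3 lower, beside 8.35% higher and 3.31% lower over all genes. The list's median log2 ratio was 0.79 against 0.07 over all genes measured. NPPA, the atrial natriuretic peptide gene that TBX5 activates, was 12.97-fold higher (1887 against 145 CPM), NPPB 6.46-fold, the pacemaker channel gene HCN4 2.74-fold and the calcium pump gene ATP2A2 1.93-fold. GJA1 (0.26, 9.63 against 37.4 CPM) and MYCN, a driver of proliferation (0.39), were among the lower ones. GJA5 stayed below 10 CPM and was not measured. Of the upstream signals 5 of 13 measured were higher and 0 lower, with WNT2 4.09-fold and TGFB2 3.05-fold. Of the partner factors 2 of 9 were higher, SRF (1.95) and MYOCD (1.63).

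Promoters of 12 of the 14 regulated genes were in the RefSeq table (GRCh38.p14), which gives 250 bases before each start. The T-box core motif AGGTGT, or ACACCT on the other strand, was in 9.57% of 35116 such promoters. Among the regulated genes it was in 1 start of GJA5 and 1 of ATP2A2. The NKX2-5 element AAGTG, or CACTT, was in 37.6% of all promoters, and in NPPA it occurred at 107 and 85 bases before the start. A match is a description of the letters and no evidence of binding. The ATP2A2 window (chr12:110280366-110280615, plus strand) is shown because it holds both motifs, in capitals, and because the gene was higher in NR2F2-positive than in HEY2-positive cells. TBX3, TBX5 and TBX2 were higher there too. The other ATP2A2 window (chr12:110280997-110281246, plus strand) held neither motif. The TBX18 window (chr6:84764599-84764848, minus strand) is shown because TBX18 had the 26.4-fold difference between classes given above, and it holds AAGTG once, 118 bases before the start.
ATP2A2: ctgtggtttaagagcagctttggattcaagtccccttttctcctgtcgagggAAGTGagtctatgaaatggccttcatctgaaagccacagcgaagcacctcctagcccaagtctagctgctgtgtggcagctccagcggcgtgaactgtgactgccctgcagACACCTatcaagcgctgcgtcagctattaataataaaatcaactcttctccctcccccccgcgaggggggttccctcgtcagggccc
TBX18: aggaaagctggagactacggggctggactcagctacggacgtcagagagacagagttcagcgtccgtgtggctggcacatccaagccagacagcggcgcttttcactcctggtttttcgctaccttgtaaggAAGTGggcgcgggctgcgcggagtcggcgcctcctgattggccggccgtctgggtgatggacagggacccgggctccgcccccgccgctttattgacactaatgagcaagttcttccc

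SHOX2-positive cells had the highest TBX18 of the subtypes and a high TBX5. TBX18 stood at 45.7 CPM (103 UMIs), 4.89-fold (3.96 to 5.97) the 9.34 CPM of HEY2-positive cells and 13.7-fold (9.96 to 18.8) the level of NR2F2-positive cells. TBX5 stood at 160 CPM, 2.75-fold (2.47 to 3.06) the HEY2-positive level and 1.13-fold (1.01 to 1.26) the NR2F2-positive level. TBX3 (28.4 CPM, 1.14-fold over HEY2-positive), TBX2 (42.1 CPM, 1.28-fold) and TBX20 (11.5 CPM, 0.98) stayed within 1.5-fold of HEY2-positive cells. Against NR2F2-positive cells TBX3 was lower at 0.40 (0.30 to 0.51) and TBX20 at 0.65 (0.42 to 0.97), where 6.78% of 8903 genes were past 1.5-fold higher and 6.16% lower. In SHOX2-positive over HEY2-positive cells 17% of 8919 genes were past 1.5-fold higher and 9.12% lower, so a call there is less selective than in the NR2F2-positive comparison. NPPA was 10.9-fold and ATP2A2 3.01-fold higher, GJA1 (0.25) was lower, and NKX2-5, which represses the pacemaker programme, stood at 0.56 (334 against 594 CPM). The smooth muscle gene MYH11 led the list at 64.5-fold (78.9 against 1.22 CPM). Among these, TBX18, TBX3, NPPA, NKX2-5 and MYH11 differed between the SHOX2-positive cells themselves, as described next.

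The high TBX18 of SHOX2-positive cells was carried mainly by cells at the border of 2 classes. In cluster 1, the cluster richest in NR2F2, 247 cells were cardiomyocyte-like here but fell into the stromal-like class at a finer clustering. TBX18 in these border cells was 65.6 CPM (56.0 to 76.2), against 2.75 (2.19 to 3.41) in the other 3105 cells of the cluster and 16.8 in stromal-like cells. Their TBX5 (126 CPM) matched the rest of the cluster (131) and not stromal-like cells (24.4). TBX3 was low in them, 19.4 against 69.8 CPM, and TBX2 was 55.9 against 59.0 CPM. SHOX2 stood at 280 against 8.21 CPM, NKX2-5 at 244 against 615, NPPA at 659 against 1808, and the 6 pacemaker markers summed to 571 against 108 CPM.

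The border cells had 43054 CPM of cardiomyocyte markers, against 57414 in the rest of the cluster and 8341 in stromal-like cells. Their stromal markers summed to 325 CPM, against 122 and 2369, and their pericyte or smooth muscle markers to 2599 CPM, against 1419 in the rest of the cluster. They held 56.2% of the SHOX2-positive cells, and TBX18 was 68.3 CPM in those 132 cells and 13.9 CPM in the other 103. NKX2-5 was 208 CPM in the former and 511 CPM in the latter, the latter within 1.5-fold of HEY2-positive cells. MYH11 was 133 CPM (175 UMIs) in the former and 3.20 CPM (3 UMIs) in the latter. TBX3 was 18.2 CPM in the former and 42.7 CPM in the latter, and NPPA was 842 and 2642 CPM. TBX20 was 6.83 CPM (9 UMIs) and 18.1 CPM (17 UMIs), with overlapping intervals. When the border cells were counted as stromal-like, the TBX18 ratio of SHOX2-positive to HEY2-positive cells was 1.49 (0.79 to 2.55), within 1.5-fold, and that of TBX3 was 1.71 (1.22 to 2.33), past it. With cardiomyocyte-like cells defined by markers in each cell, whatever their cluster, TBX18 was at 4.50-fold and TBX3 at 1.18-fold. Of the border cells 166 had a hashtag, spread over 12 hashtags. TBX18 was 15.0 CPM in the 68 cells of hashtag 15, 63.4 in the 98 of other hashtags and 100 in the 81 with none. Within hashtag 15, the 1 hashtag with at least 20 cells on both sides, the SHOX2-positive to HEY2-positive ratio of TBX18 was 0.97, that of TBX3 1.11 and that of TBX5 2.77. With hashtags 14 and 15 and cells of no hashtag left out the ratios were 7.60 for TBX18, 0.60 for TBX3 and 2.63 for TBX5.

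**Figure D3:**
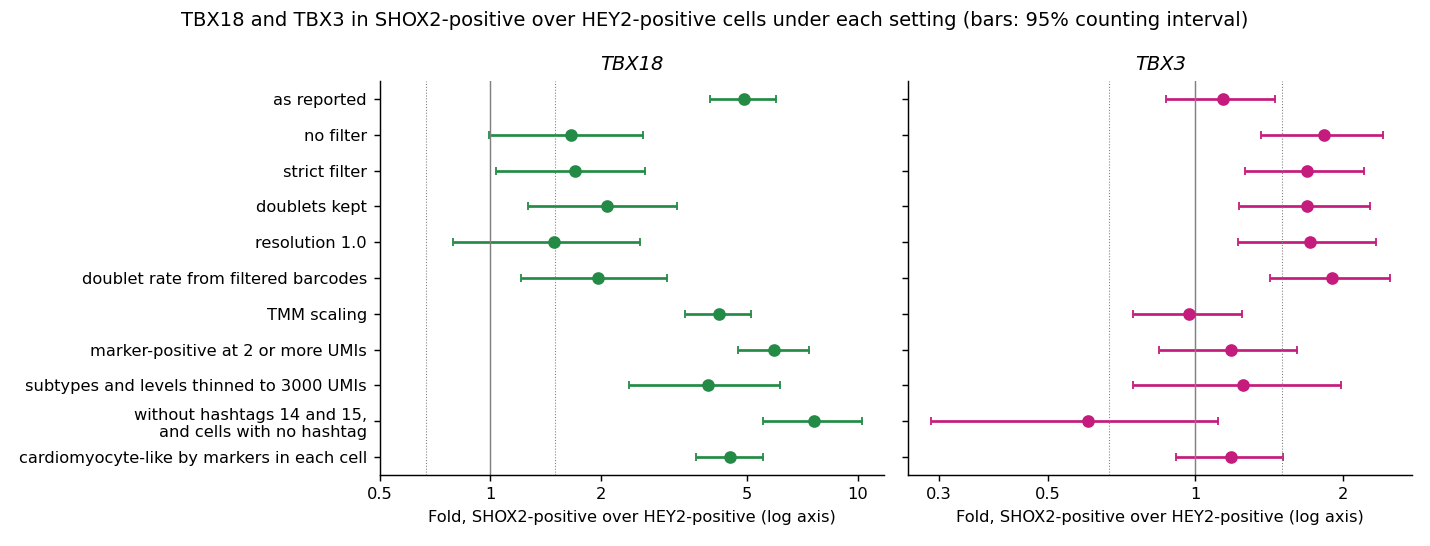
Ratio of SHOX2-positive to HEY2-positive cells (horizontal axis, log scale) for TBX18 on the left and TBX3 on the right under each setting, with 95% counting intervals and dotted lines at 1.5-fold either way. The TBX18 ratio is 1.49 to 2.08 in the 5 settings that cluster the cells anew and 3.91 to 7.60 in the others, while the TBX3 ratio is 1.69 to 1.90 in the former and 0.60 to 1.25 in the latter.

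Over the 7 clusters of cardiomyocyte-like cells TBX3 ran from 13.03 to 65.8 CPM, TBX5 from 48.3 to 130 CPM, TBX2 from 24.6 to 66.3 CPM and TBX20 from 6.41 to 17.3 CPM. Cluster 1 had TBX5 at 130 and TBX3 at 65.8 CPM, 2.16-fold and 2.35-fold the other cardiomyocyte-like cells, where 7.09% of 8598 genes were past 1.5-fold higher and 4% lower. TBX5 in the other 6 clusters lay between 48.3 and 66.4 CPM. Cluster 6 had TBX2 (66.3 CPM, 1.78-fold) and TBX3 (53.7 CPM, 1.71-fold) high and TBX20 low (6.41 CPM, 0.52), against 5.6% of genes higher and 4.35% lower. Cluster 3 had the lowest TBX3 (13.03 CPM, 0.35), with TBX2 (0.58) and TBX5 (0.66) also low, where 0.385% of genes were higher and 7.62% lower. Cluster 2 had the highest TBX20 at 17.3 CPM (1.65-fold), with 6.49% of genes higher and 3.26% lower. TBX18 ranged from 6.85 to 10.7 CPM over the 7 clusters and was within 1.5-fold of the other cells in each.

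Cluster 13, which kept 32111 CPM of cardiomyocyte markers but was left unnamed, was the cluster with the most TBX2. Its TBX2 was 242 CPM in the 39 cells of hashtag 7 and 134 CPM in the 39 cells of other hashtags, both above the highest hashtag among cardiomyocyte-like cells (71.5 CPM). TBX3 (1.46-fold) and TBX5 (1.48-fold) stayed within 1.5-fold of cardiomyocyte-like cells and TBX20 was lower (0.37, 6 counts), while 19.8% of 9102 genes were past 1.5-fold higher and 8.38% lower. NKX2-5 was 1.80-fold and TGFB2 4.86-fold higher there. NPPB (0.22), MYCN (0.30), GJA1 (0.33) and HCN4 (0.47) were lower. Between cycling cells (1524 with at least 3 of 12 cycling genes) and cells with none (11046), all 5 members stayed within 1.5-fold, at 0.73 to 1.16, where 8.83% of 8734 genes were higher and 3.81% lower.

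How many members a cell showed depended on depth. Of 15477 cardiomyocyte-like cells thinned to 3000 UMIs, 20.0% had TBX5, 11.96% TBX2, 9.63% TBX3, 3.62% TBX20 and 2.21% TBX18. In epithelial-like cells thinned alike the shares were 2.28% for TBX5, 2.15% for TBX2 and 0.134% for TBX20 (median depth before thinning 13546 UMIs, against 12949 in cardiomyocyte-like cells). No member was seen in 61.4% of cardiomyocyte-like cells, 1 in 30.7%, 2 in 7.11%, 3 in 0.833% and 4 in 3 cells. All 5 together were seen in 0 of the thinned cells, and in 34 of 15917 cells (0.214%) at full depth, where 20.5% of cells had none, 34.8% had 1, 27.7% had 2, 13.6% had 3 and 3.13% had 4. At 6000 UMIs 16.3% had 2 and 3.30% had 3.

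TBX2 and TBX3 were found together more often than their single shares predict. They shared 294 cells, 1.90% (1.69 to 2.13) against 1.15% expected from the single shares, a ratio of 1.65. The pair was above expectation in NR2F2-positive cells (3.897% against 2.44%) and in HEY2-positive cells (1.26% against 0.736%). With the expectation formed within each hashtag it was 1.44, and the pair was above expectation in 12 of 13 hashtags. TBX5 and TBX20 shared 142 cells, 0.917% (0.773 to 1.08) against 0.725% expected, a ratio of 1.27 that was 1.17 within hashtags and above expectation in 10 of 13. For TBX20 with the repressors the ratio was 1.24 with TBX2 and 1.24 with TBX3, and within hashtags 1.37 (above expectation in 10 of 13) and 1.17 (8 of 13). With TBX2 it fell to 1.02 at 6000 UMIs and 1.13 unthinned, and with TBX3 it was 1.22 and 1.25. TBX3 with TBX5 (1.27) and TBX2 with TBX5 (1.13) came down to 1.09 and 1.01 within hashtags. TBX3 and TBX18 shared 14 cells, a ratio of 0.42 that was 0.58 at 6000 UMIs and 0.88 unthinned, and within hashtags 6 cells against 11.9 expected. TBX2 and TBX18 shared 27 cells at 0.66, which became 0.83 within hashtags and 0.98 unthinned.

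**Figure D4:**
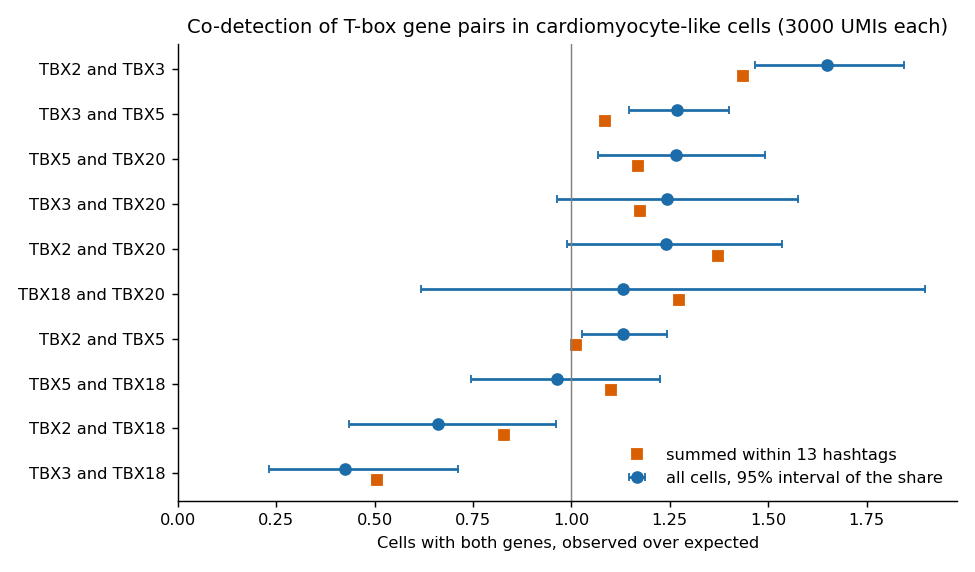
Cells with both genes of a pair, observed over expected from the single shares (horizontal axis), in cardiomyocyte-like cells thinned to 3000 UMIs, for all cells (circles, with the 95% interval of the observed share) and summed within the 13 hashtags (squares). TBX2 and TBX3 lie highest at 1.65 and TBX3 and TBX18 lowest at 0.42.

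Cells with a member were compared with cells without it at the same depth, where cells without a UMI also include cells that express the gene. Cells with TBX3 (1491) had more BMP2 (2.60-fold, 174 against 66.7 CPM) and MSX2 (2.43-fold, 69.1 against 28.5 CPM), a signal and a factor of the atrioventricular canal, than those without (13986). They also had more EPHA4 (2.17), KDR (2.17), ENG (2.12), TBX2 (1.91) and ID2 (1.54), while GJA1 (0.48) and MYCN (0.54) were lower. Only 1.9% of 8630 genes were past 1.5-fold higher and 0.382% lower. Cells with TBX2 (1851) shared much of this: MSX2 1.99-fold, KDR 1.98, BMP2 1.97, TBX3 1.89 and ENG 1.71 higher and GJA1 lower at 0.55, against 0.644% of 8542 genes higher and 0.129% lower. NPPA was at 0.76 with TBX2 and at 1.16 with TBX3, both within 1.5-fold. Within hashtags NPPA went both ways, at 0.29 to 1.98 with TBX2 (higher in 4 and lower in 8 of 12) and 0.60 to 2.43 with TBX3 (higher in 4 and lower in 6 of 10). Inside NR2F2-positive cells, however, NPPA was 1094 CPM with TBX2 and 2145 CPM without (0.51), and 1416 against 2113 CPM (0.67) with and without TBX3, where 5.35% and 6.89% of genes were past 1.5-fold higher and 6.19% and 4.18% lower. The same splits inside HEY2-positive cells are not given here, so the lower NPPA is described for NR2F2-positive cells only.

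The same genes were followed inside hashtags with at least 20 cells on each side. With TBX3, MSX2 was higher in 9 of 10 hashtags, ID2 and TBX2 in 10 of 10 and BMP2 in 7 of 10, and GJA1 was lower in 9 of 10. With TBX2, BMP2 and MSX2 were higher in 10 of 12 and TBX3 in 11 of 12, and GJA1 was lower in 10 of 12. Many of the intervals for single hashtags held 1, and for GJA1 most did. A hashtag had 0 to 6 GJA1 UMIs in its cells with TBX3 and 0 to 10 in its cells with TBX2. NPPA inside NR2F2-positive cells was lower with TBX2 in 3 of 3 hashtags (0.49 to 0.91) and lower with TBX3 in 2 of 2 (0.51). For TBX2 the interval of hashtag 8 (0.91, 0.71 to 1.15) held 1.

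Cells with TBX5 (3100) had 2.05-fold (2.00 to 2.10) more NPPA than those without (959 against 468 CPM), with NR2F2 2.21-fold and SFRP1 1.81-fold higher, where 0.542% of 8489 genes were higher and 0.0353% lower. NPPA was the 1 gene of the 14 T-box regulated ones past 1.5-fold. It was higher with TBX5 in 12 of 12 hashtags, with a median of 1.80-fold. Within the subtypes the difference was smaller: 1.13-fold in NR2F2-positive cells (2159 against 1909 CPM) and 1.00 in HEY2-positive cells (152 CPM on both sides), where 3.55% and 0.309% of genes were past 1.5-fold higher and 2.31% and 0.19% lower.

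TBX18 and TBX20 were seen in fewer cells. Cells with TBX18 (342) had more NRP2, a semaphorin receptor (2.52-fold, 234 against 92.9 CPM), and less NPPA (0.37, 211 against 574 CPM), BMP2 (0.49), HCN4 (0.63) and NPPB (0.66), where 4.94% of 8656 genes were higher and 4.67% lower. NPPA was also lower with TBX18 inside HEY2-positive cells (0.598, 92.1 against 154 CPM), where 5.23% of genes were higher and 7.77% lower. Only hashtags 4 and 5 had at least 20 cells on each side of the TBX18 split. NRP2 was higher with TBX18 in both. NPPA was lower in both, at 0.37 and 0.054, on 10 and 2 UMIs in the cells with TBX18. HCN4 went both ways, at 1.45 and 0.25, on 5 UMIs and 1 UMI. BMP2 and NPPB were not followed inside hashtags for TBX18. Cells with TBX20 (560) had more FARP1 (1.74), ZDBF2 (1.65), NR4A1 (1.63), CMYA5 (1.596) and TET2 (1.58), and GJA1 was at 0.66, where 3.12% of 8650 genes were higher and 1.62% lower.

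Across hashtags the members had different ranges in cardiomyocyte-like cells. TBX5 ran from 34.2 CPM in hashtag 1 through a median of 69.1 to 145 in hashtag 15. Hashtags 14 (133) and 15 lay above the other 11, which ended at 78.2 CPM, and outside cluster 1 they still had 100 and 88.2 CPM against 33.3 to 70.4 elsewhere. TBX3 ran from 13.1 (hashtag 10) through 32.5 to 103 CPM (hashtag 14), and hashtag 15 (52.4) lay beside hashtag 7 (53.4). TBX2 ran from 22.7 (hashtag 10) through 38.5 to 71.5 CPM (hashtag 7). TBX20 ran from 8.25 (hashtag 2) through 13.9 to 20.0 CPM (hashtag 14). TBX18 ran from 3.28 (hashtag 7) through 8.99 to 13.5 CPM (hashtag 4), and hashtags 14 (3.68) and 15 (4.04) were near its low end. Median depth was 8185 and 8301 UMIs in hashtags 14 and 15 and 9967 to 17928 in the others, and its part in these levels was not tested.

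**Figure D5:**
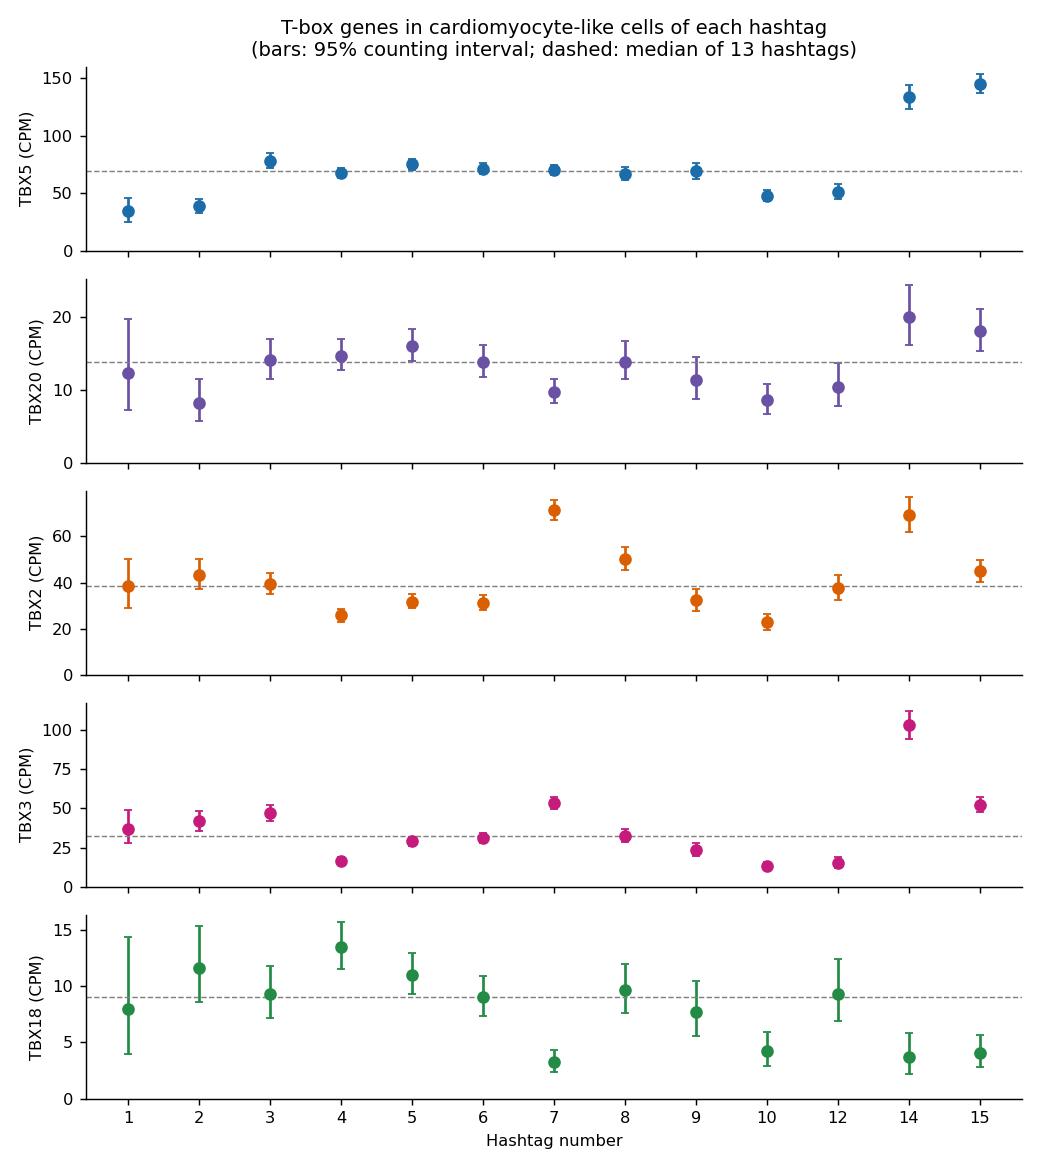
Level of each T-box gene (vertical axes, CPM) in the cardiomyocyte-like cells of each of the 13 hashtags (horizontal axis), with 95% counting intervals and the median over hashtags as a dashed line. Hashtags 14 and 15 have the highest TBX5 (133 and 145 CPM), and hashtags 7, 10, 14 and 15 have the lowest TBX18, at 3.28 to 4.24 CPM.

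The genes whose levels followed each member most closely over 13 points (6 classes and the 7 cardiomyocyte-like clusters) were found by Pearson's r of log2(CPM + 5) among 11341 genes. For TBX18 they were WT1 (r = 0.97), LINC01638 (0.96) and WT1-AS (0.96), and for TBX20 AC087588.2 (0.97), CACNA1C (0.96), the main cardiac calcium channel gene, and ABLIM1 (0.96). For TBX5 they were OSR1, LAMB2 (0.95 each) and PRNP (0.94), for TBX3 CCND1 (0.95), PLEKHG5 (0.88) and USF3 (0.87), and for TBX2 CD27-AS1, TMEM63B and LINC02762 (0.95 each). The points share 1 library, and some hold few cells. TBX18 stood at 226 CPM in epicardial-like cells and at no more than 23.1 CPM at the other points. Its 3 genes were also highest in epicardial-like cells, so their r rests largely on that point. Of the 12 other T-box family genes 11 were below 1 CPM in cardiomyocyte-like cells, and MGA, which represses growth genes, stood at 22.3 CPM.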

How the data were processed

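The deposited matrix holds raw UMI counts of 36601 genes and 13 hashtags in 24038 barcodes, made by the authors with Cell Ranger 4.0.0 per the file headers and on hg38 per the submitters' processing notes. The sources used here do not give the alignment settings, the annotation release, the use of strand or the rule for calling cells. The filter asked for 500 genes, 1000 UMIs and a mitochondrial share of 25% or less (21623 barcodes passed), and 989 doublets (4.57%) marked by Scrublet in scanpy 1.11.5 were removed, where 19.2% was the expected rate, so doublets may remain in every count of cells with 2 genes, in the border cells and in cluster 13. Cells were clustered on 2000 variable genes with 30 components and 15 neighbours by leidenalg 0.10.2 at resolution 0.6, leaving out the T-box family, its antisense neighbours, the T-box regulated genes, and mitochondrial and ribosomal genes. Clusters were named from marker lists. A cluster was cardiomyocyte-like with at least 25000 CPM of the 12 cardiomyocyte markers and no leading 10 genes against that name.

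Counts were summed over the cells of a group, scaled to CPM and given with exact Poisson intervals. Ratios carry exact conditional intervals at 95%. A gene was measured at 10 CPM and 10 counts on the higher side and called at 1.5-fold, with no p-value. A group at 0 was set to 3 counts. Shares of cells have exact binomial (Clopper-Pearson) intervals after thinning to 3000 UMIs, which left out 440 cardiomyocyte-like cells. A hashtag was assigned at 20 hashtag UMIs with 70% from 1 hashtag, which left 10633 cells without one. PCR duplicates are removed by UMIs, and the intervals cover counting error only. On simulated counts for the SHOX2-positive and HEY2-positive groups (8106 genes), 99% of 200 changed genes and 1.04% of the unchanged ones were past 1.5-fold, and 95.6% of intervals held the true ratio. These shares concern counting error in the 2 groups. They are no rate of false calls where hashtags or cells differ from each other.

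The members and gene lists were chosen with earlier results of these data known. The text names the 5 members, up to 4 genes of each list by size in a comparison with NPPA, GJA5, GJA1 and HCN4, the 3 genes most alike each member, and the top 5 genes with against without a member at 50 CPM or more. The marker threshold, the unnamed cluster, the border cells, the minimum of 20 cells by hashtag, the splits within hashtags and the genes followed in them were chosen after seeing the data. Alternatives were other filters, doublet settings, resolution, scaling (TMM in edgeR 4.0.16), marker cutoffs, depths and hashtag rules, and each hashtag left out in turn. 1 gene of the T-box regulated list is in the counts and is not reported here. The promoter sequences are from RefSeq.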

Additional observations from a re-analysis of the deposited data

How the results depend on the processing

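The labels give no replicate numbers to pair. NR2F2-positive and HEY2-positive cells were paired within hashtags, as ratios with no test. Of the ratios past 1.5-fold, 1 changed direction: TBX20 in NR2F2-positive over HEY2-positive cells was 0.96 without hashtags 14 and 15 and cells with no hashtag. The ratios of TBX2, TBX3 and TBX20 in SHOX2-positive over HEY2-positive cells, all within 1.5-fold as reported, lay above 1 in some settings and below 1 in others. Of the 247 border cells, 137 to 247 were stromal-like in the 5 other clusterings. The cause of the moves below was not tested.

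TBX18 in epicardial-like over cardiomyocyte-like cells was 29.4 with no filter, 29.003 with the doublet rate from filtered barcodes and 23.5 with TMM scaling, which shifts log2 ratios by -0.17 there. Over stromal-like cells it was 8.06 with no filter, 9.90 with the strict filter, 8.61 with doublets kept, 9.66 at resolution 1.0 and 9.61 with the other doublet rate. In SHOX2-positive over HEY2-positive cells, in the same order of settings, TBX18 was 1.66, 1.70, 2.08, 1.49 and 1.96, and TBX3 was 1.83, 1.69, 1.69, 1.71 and 1.90. TBX5 was 3.36 with no filter, 3.19 strict, 3.07 at resolution 1.0, 3.22 with the other doublet rate and 2.35 with TMM scaling (a shift of -0.23). TBX20 was 1.47 strict, 1.63 with doublets kept and 1.54 at resolution 1.0, and TBX2 was 0.85 with no filter. Thinned to 3000 UMIs, TBX2 was 0.83 and TBX18 3.91, and without hashtags 14 and 15 and cells with no hashtag TBX3 was 0.60 and TBX18 7.60.

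In NR2F2-positive over HEY2-positive cells TBX3 was 3.31 with no filter, 3.08 with the other doublet rate, 2.55 with TMM scaling (a shift of -0.17), 3.15 with 2 or more UMIs of a marker, 2.45 thinned and 2.10 without hashtags 14 and 15 and cells with no hashtag. TBX5 was 2.58 with no filter, 2.18 with TMM, 2.75 with 2 UMIs and 2.01 without those hashtags. TBX2 was 1.54 with TMM, 1.304 thinned and 1.92 without those hashtags. TBX20 was 1.71 with 2 UMIs and 1.28 thinned. TBX18 was 0.231, 0.238, 0.245, 0.256 and 0.245 in the 5 clusterings and 0.213 with 2 UMIs.

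TBX5 and TBX20 were found together in 2.75% of cells at 6000 UMIs and 9.94% unthinned, and the ratio for TBX2 with TBX3 was 1.44 and 1.34. Those of TBX3 with TBX18 (0.58 and 0.88) and TBX2 with TBX18 (0.78 and 0.98) also moved toward 1. The count of T-box regulated genes past 1.5-fold with TBX5 was 2 at resolution 1.0. Leaving out each hashtag in turn gave 25.4 to 27.4 and 12.3 to 14.9 for TBX18 in epicardial-like cells, 4.41 to 6.60 for TBX18, 1.05 to 1.22 for TBX3, 1.21 to 1.44 for TBX2, 2.57 to 2.81 for TBX5 and 0.92 to 1.03 for TBX20 in SHOX2-positive cells. In NR2F2-positive cells it gave 2.65 to 3.08 for TBX3, 2.28 to 2.49 for TBX5, 1.67 to 1.81 for TBX2, 1.37 to 1.57 for TBX20 and 0.345 to 0.380 for TBX18.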

Other observations

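The labels put the 13 hashtags in no group. TBX5 in cardiomyocyte-like cells was 34.2, 38.7, 78.2, 67.2, 75.02, 71.3, 69.8, 66.9, 69.1, 47.6, 51.2, 133 and 145 CPM in hashtags 1, 2, 3, 4, 5, 6, 7, 8, 9, 10, 12, 14 and 15. In the same order TBX3 was 37.1, 41.7, 46.8, 16.7, 29.01, 30.8, 53.4, 32.5, 23.6, 13.09, 15.1, 103 and 52.4 CPM. A gap from 78.2 to 133 CPM sets hashtags 14 and 15 apart in TBX5, and in TBX3 a gap from 53.4 to 103 CPM sets hashtag 14 apart alone.

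Stromal-like cells varied widely between hashtags. Over the 11 hashtags with at least 20 such cells TBX18 ran from 3.24 through a median of 21.0 to 81.6 CPM, TBX5 from 7.19 through 31.5 to 58.8 and TBX2 from 38.1 through 53.1 to 113 CPM.

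Of the antisense neighbours, TBX5-AS1, which overlaps the start of TBX5 on the opposite strand, had 8.10 CPM in cardiomyocyte-like cells and was 2.87-fold (2.54 to 3.24) higher in NR2F2-positive than in HEY2-positive cells, beside 2.44-fold for TBX5. TBX2-AS1 was 1.93-fold higher there, beside 1.72-fold for TBX2. Without strand in the counting, reads of a gene and its antisense partner could not be told apart.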
